A study of Mus musculus with 6 samples.

Results

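The genes described here are those whose mouse symbol starts with Kcn, 1 or more letters and a number, which takes in the subunits of potassium channels. A search of the probe annotation found 84 such genes among 18193 genes with a single symbol, measured by 167 of 45037 probe sets. Of these genes 81 encode channel subunits and 3 are noncoding RNAs that carry a channel's name, Kcnq1ot1, Kcnmb4os1 and Kcnmb4os2. The rule uses names alone, although it was proposed with earlier results of these data known.

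C2C12, a mouse myoblast line, was compared in 2 groups of 3 arrays. Control cells expressed an shRNA to GFP, and knockdown cells one to PRDM2, a nuclear protein of the PR/SET family of methyltransferases. Both were stable pools of transfected cells. All cells of both groups were held for 48 hours in methylcellulose suspension with 20% fetal calf serum, which brings myoblasts to G0, the quiescent state. Replicates are named biological in the labels, with no word on separate transfections, so p-values measure only the spread between these samples.

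Potassium channels let potassium leave the cell and so hold the membrane at a negative voltage. Voltage-gated, inwardly rectifying, leak and calcium-activated channels differ in what opens them, and auxiliary subunits alter the gating or traffic of the pores. In myoblasts, inward rectifier and ether-a-go-go channels are known for the hyperpolarization that precedes fusion, which admits calcium and feeds calcineurin, MEF2 factors and myogenin.

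Signals of the whole array set the frame for every value. Array medians lay between intensities of 10.6 and 12.1, and 55.1% to 58.2% of an array's probe sets gave under 16. The Dap poly-A spike gave 39.9 and 38.8 on array 3 of the control and the knockdown and 126 to 254 on the other arrays, and the Gapdh 5' to 3' ratio of control array 3 was 0.0992, against 0.704 to 1.14 elsewhere. Prdm2, the targeted gene, gave 86.2, 73.6 and 47.1 in the control and 58.0, 51.5 and 29.0 in the knockdown at its brightest probe set. The knockdown mean was 66.9% of the control, with overlapping groups and a log2 difference of -0.51 that did not pass. Of 7 myoblast markers 7 averaged at least 16, Myod1 and Des among them. Vcam1 and Itga7 of that list rose by 2.36 and 0.63, Myf5 fell by 1.29, and the other 4 did not pass. Of 6 markers of differentiated muscle 5 rose, and their summed intensity spanned 171 to 290 in the control and 4597 to 5951 in the knockdown. All 5 endothelial markers were below 16, as were 7 of 8 neuronal ones. Markers of fibroblasts, smooth muscle and macrophages reached 16 in 3 of 5 each, and glial ones in 2 of 5. Col1a1 of the fibroblast list and Slc1a3 of the glial list rose, by 0.98 and 1.40, and none passed among smooth muscle and macrophage markers. Summed intensity spanned 220 to 517 in the control and 555 to 729 in the knockdown for fibroblast markers, and 73.0 to 80.6 and 127 to 164 for glial ones. The higher glial sum came from Slc1a3, at means of 31.1 and 113 in control and knockdown. Gfap, Olig2 and Mbp of that list had differences below 0, and Aqp4 differed by 0.06, with none of them passing. In RNA from a whole culture, fewer cells of a type and less RNA per cell cannot be told apart.

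Most potassium channel genes gave little signal in either group, and 1 of the 84 changed with the knockdown: Kcnmb4, an auxiliary subunit of the large-conductance calcium-activated channel, fell 2.24-fold. No member rose. At an unadjusted limma p under 0.05, 3 of the 84 were higher and 3 lower, against 15.8% of all genes in either direction. By the same limma test 5.16% of all genes passed, 2.96% up and 2.19% down, against 1.19% of the members. Signal level bears on that comparison, since 7.7% of genes with a mean of at least 16 passed and 1.71% of dimmer ones. Of the 20 members at that level 1 passed, which is 5% of them. The deposited values of the groups did not overlap for 12 members, or 14.3%, against 21.1% of all genes. The knockdown was higher in 7 of them and lower in 5, where 12.4% and 8.72% of all genes did so.

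The level of each gene was read from its probe set of highest mean across the 6 arrays. For 31 of the 84 genes it averaged under an intensity of 4, for 20 between 4 and 8 and for 13 between 8 and 16. Among all genes 18.2% were under 4 and 22.9% reached 128, a level that 3.57% of the members reached. A probe set's brightness depends on its probes as well as on the transcript, so levels are not set against each other gene by gene. The 64 dim members had log2 differences from -0.40 to 0.41, and the smallest limma adjusted p among them was 0.215. These differences were taken on log2(intensity + 16), which understates the change of dim genes. With an offset of 1 in place of 16, Kcnmb4 was again the member called.

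**Figure D1:**
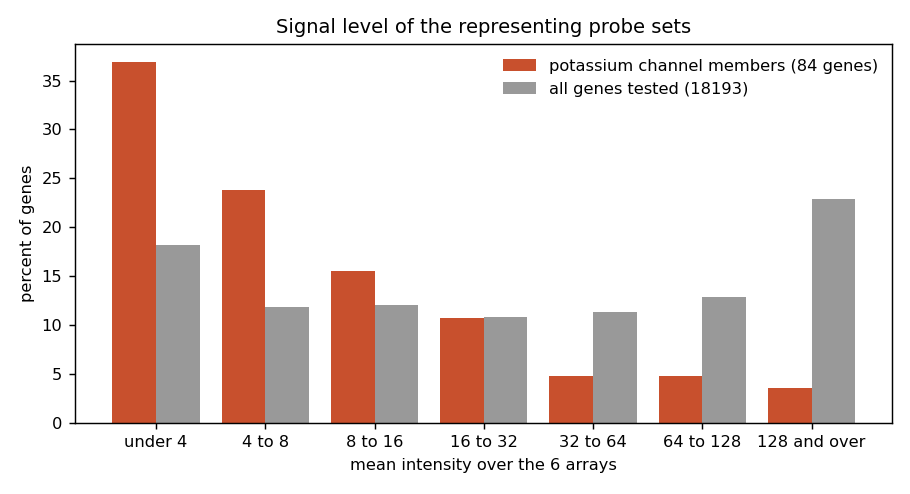
Bars give the percentage of genes in each bin of mean intensity over the 6 arrays (x axis), for the 84 potassium channel members and for all 18193 genes tested. The members crowd into the dim bins, with 36.9% of them under an intensity of 4 against 18.2% of all genes.

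Kcnmb4 encodes a beta subunit that slows the activation of the large-conductance channel and is best known from brain. Its probe set, 1449471_at (Entrez gene 58802), gave 230.4, 163 and 189 in the control, arrays 1 to 3 in order, against 114, 72.0 and 67.6 in the knockdown. Every control array was above every knockdown array. Control arrays averaged 194 ± 34.0 and knockdown arrays 84.7 ± 25.9 (SD, n = 3 each), or 43.6% of the control level. On the log2 scale Kcnmb4 differed by -1.16, knockdown minus control, with an SE of 0.205 and a limma adjusted p of 0.0247. The 95% interval ran from -1.65 to -0.68, and an exact permutation test, two-sided, gave p = 0.1, the smallest that 3 arrays against 3 allow. Over all probe sets, of which 2.43% passed, its limma adjusted p was 0.0475.

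The call for Kcnmb4 rested on the arrays used, although its sign did not. Its limma adjusted p became 0.0976 without control array 1, 0.0766 without control array 3, 0.0964 without knockdown array 2 and 0.0941 without knockdown array 3. In the 4 arrays of higher spike signal the log2 difference was -0.97 and the limma adjusted p 0.197. The 2 arrays numbered 3, of lower spike signal, differed by -1.54. Over the 8 neuronal markers the summed signal was 86.5 to 103 in the control and 46.4 to 61.4 in the knockdown. Most of that drop came from the tubulin gene Tubb3, the only 1 of the list to pass. Tubb3 fell by 0.96, from 47.1 ± 16.3 to 16.4 ± 1.60 (SD, n = 3 each). The other 7 averaged under 16 and did not pass. Among the synaptic ones, Syt1 averaged 15.8 and 15.2 in control and knockdown, Syp 8.49 and 10.7, Snap25 2.16 and 0.726, and Slc17a6 1.57 and 1.30. The part of the neuronal marker signal in the fall of Kcnmb4 was not tested.

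The genomic stretch just upstream of Kcnmb4 is shown because it belongs to the member that fell, next to those of Kcnn4 and Kcna7, which are among the members of clear signal that did not pass. Each run is the 250 bases before the annotated start, from RefSeq on GRCm38.p6, where 64 of the 84 members had an entry. Kcnmb4 is at chr10:116473524-116473773 on the minus strand, Kcnn4 at chr7:24370013-24370262 on the plus strand and Kcna7 at chr7:45405710-45405959 on the plus strand. Capitals mark a GC box, GGGCGG on either strand.
Kcnmb4: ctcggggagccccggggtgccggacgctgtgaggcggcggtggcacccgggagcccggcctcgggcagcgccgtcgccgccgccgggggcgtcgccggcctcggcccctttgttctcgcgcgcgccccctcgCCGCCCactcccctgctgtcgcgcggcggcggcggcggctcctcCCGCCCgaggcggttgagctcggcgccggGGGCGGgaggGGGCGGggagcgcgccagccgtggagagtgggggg
Kcnn4: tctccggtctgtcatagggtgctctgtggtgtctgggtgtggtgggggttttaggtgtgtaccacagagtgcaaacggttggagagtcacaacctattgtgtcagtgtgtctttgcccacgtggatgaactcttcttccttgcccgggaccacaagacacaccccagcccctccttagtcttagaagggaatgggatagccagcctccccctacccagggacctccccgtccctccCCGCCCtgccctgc
Kcna7: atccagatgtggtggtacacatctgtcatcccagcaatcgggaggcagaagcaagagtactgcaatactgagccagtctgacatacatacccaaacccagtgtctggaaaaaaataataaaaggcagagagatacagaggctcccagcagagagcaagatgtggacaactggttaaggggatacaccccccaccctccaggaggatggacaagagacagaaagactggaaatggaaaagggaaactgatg

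The stretch of Kcnmb4 was the most GC-rich of the 3, with 83.6% G or C and 43 CG pairs, where the median of all 32851 stretches was 52.4% and 6. Kcnn4 had 58.8% and 6 CG pairs, and Kcna7 48.4% and 1. The GC box was found 4 times in Kcnmb4, 1 time in Kcnn4 and 0 times in Kcna7, and at least 1 time in 32.7% of all stretches. Also searched on both strands were CAGCTG, a form of the E-box that myogenic factors bind, TATAAA and CCAAT, which do not overlap the GC box in their letters. None of these was in the 3 stretches, and 13%, 12.4% and 33.8% of all stretches held them. A match is only a run of letters, and binding was not measured.

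The 2 noncoding RNAs of the Kcnmb4 locus gave almost no signal. Kcnmb4os1 averaged 2.91 ± 0.481 in the control and 1.85 ± 1.41 in the knockdown, and Kcnmb4os2 7.61 ± 1.52 and 6.88 ± 1.58 (SD, n = 3 each). Their log2 differences were -0.08 and -0.04, and both overlapped between the groups. The pore that Kcnmb4 joins, encoded by Kcnma1, was dim as well. Its 5 probe sets lay between 0.268 and 10.6 on all arrays, the representing one at 3.85 ± 1.60 and 6.79 ± 4.50, with a log2 difference of 0.19 (limma adjusted p = 0.715). The other beta subunits on the arrays, Kcnmb1 and Kcnmb2, had log2 differences of 0.03 and -0.18 at intensities under 9.

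**Figure D2:**
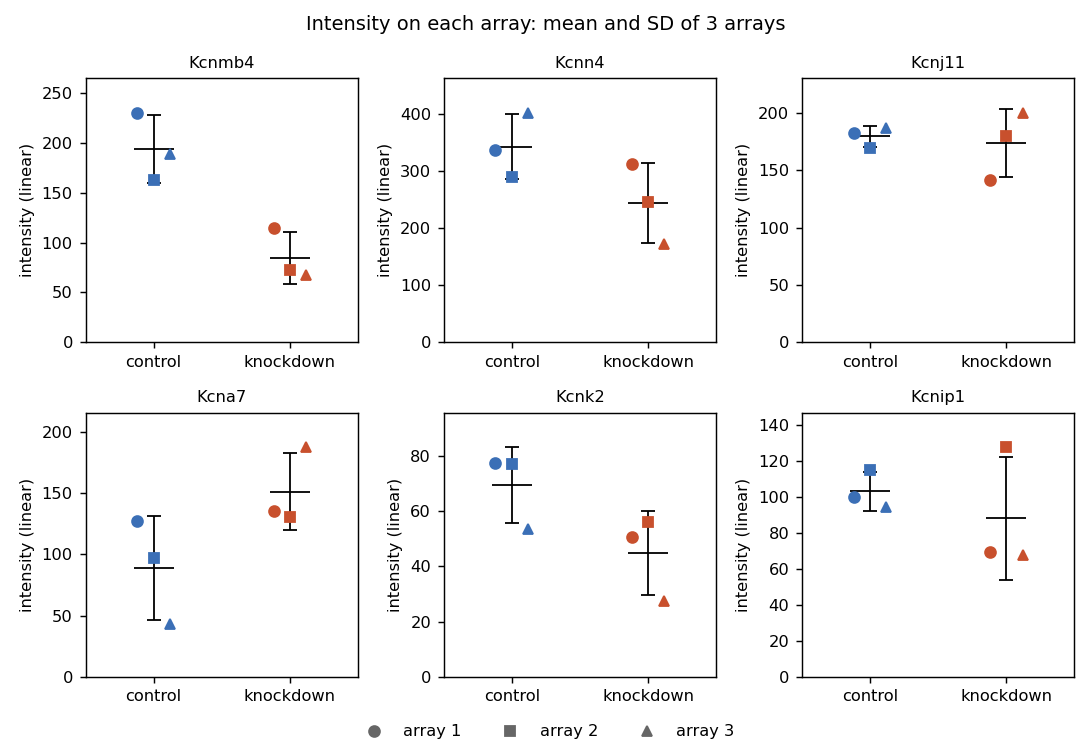
Intensity on each array (y axis, linear, from 0) in the control and the knockdown for 6 members of clear signal, with array 1, 2 and 3 as circle, square and triangle and the mean and SD of 3 arrays in black. The groups lie apart for Kcnmb4, narrowly for Kcna7, and overlap for Kcnn4, Kcnj11, Kcnk2 and Kcnip1.

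Pores named Kcnma, Kcnn, Kcnt or Kcnu, grouped by symbol alone as calcium- or sodium-activated, comprised 8 genes with 0 up and 0 down. Kcnn4, the intermediate-conductance channel known from proliferating cells, read 337, 290 and 403 on the control arrays and 313, 246 and 173 on the knockdown arrays. Only 1 control array was below the highest knockdown array. The log2 difference was -0.58 (95% interval -1.18 to 0.03, limma adjusted p = 0.345). For Kcnn4 it was -0.16 on the 4 arrays with more spike signal, and -1.42 on the 2 with less. Its other probe set read 114, 119 and 124 against 87.2, 86.7 and 102. There the groups did not overlap, and the log2 difference of -0.41 did not pass over all probe sets (limma adjusted p = 0.226). Kcnn1, a small-conductance channel, differed by -0.24 at its brighter probe set and by 0.33 at its other, with neither passing. Kcnn3, the small-conductance channel known from denervated and developing muscle, was at 0.651 to 6.15 on all arrays.

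Among 15 inward rectifiers 0 passed, with a median log2 difference of -0.03 against -0.00395 over all genes. Kcnj11 encodes the pore of the ATP-sensitive channel of muscle and pancreatic islets. It read 183, 169 and 187 in the control and 141, 179.5 and 200.1 in the knockdown. The knockdown arrays spanned the control arrays. The difference was -0.14 (95% interval -0.54 to 0.26, limma adjusted p = 0.81), and its second probe set differed by -0.17. The interval leaves room for a change of that size in either direction, so equal expression is not shown.

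Kcnj2, the inward rectifier linked to myoblast hyperpolarization, was at background. Its only probe set read 1.43, 0.538 and 1.92 in the control and 2.29, 0.466 and 0.263 in the knockdown. Kcnj12, a close relative, read 0.561, 1.58 and 0.807 against 5.27, 2.07 and 4.31, and Kcnj8, the vascular ATP-sensitive pore, 1.86, 1.49 and 1.10 against 4.57, 2.48 and 3.02. Both were higher on each knockdown array, as was Kcnj5, a heart and endocrine subunit gated by G proteins, at means of 1.73 and 3.74. Kcnj13, known from epithelia, was lower on each knockdown array, at 10.6 ± 4.06 against 4.12 ± 1.27 (SD, n = 3 each). None passed, with limma adjusted p values of 0.37, 0.566, 0.538 and 0.24, and at such intensities the depth of the signal limits any reading. Kcnj1, Kcnj4 and Kcnj6 averaged between 16.9 and 17.7 and differed by -0.32, 0.04 and -0.23.

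Voltage-gated pores made up 22 genes, with 0 up and 0 down and a median log2 difference of 0.01. Kcna7, a channel of skeletal muscle and heart, had the highest positive difference of all 84 members. It read 127, 96.8 and 43.1 on the control arrays and 136, 131 and 188 on the knockdown arrays. Every knockdown array was above every control array, although the brightest control was close to the dimmest knockdown. The log2 difference was 0.68 (95% interval -0.00 to 1.36, limma adjusted p = 0.319). Most of it came from array 3 of each group, with 0.22 on the 4 arrays with more spike signal and 1.59 on the 2 with less. Without control array 3 it was 0.38. That array had a Gapdh 5' to 3' ratio of 0.0992, against 0.934 on knockdown array 3, and the part of RNA quality was not tested.

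Kcnc2, a fast-gating channel of neurons, read 20.3, 28.6 and 13.9 against 25.3, 39.8 and 29.7, and its difference of 0.38 did not pass (limma adjusted p = 0.296). Kcnh2, the ether-a-go-go related channel of heart, differed by 0.30. Its relative Kcnh3 averaged 91.1 ± 32.2 and 104 ± 14.6 (SD, n = 3 each), with a difference of 0.14 at the brightest probe set and -0.11 to -0.20 at the other 3. Kcnd1 and Kcnd3, pores of transient outward currents, were each lower on all knockdown arrays, with differences of -0.32 and -0.27 (limma adjusted p = 0.407 and 0.355). Kcnh1, the ether-a-go-go channel of fusing myoblasts, was at 1.09 to 6.31 on all arrays. At their representing probe sets Kcna5, Kcnc4 and Kcnq5 stayed below 8, and Kcnc1 between 9.44 and 13.3.

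Silent modifiers, which join other pores and carry no current alone, numbered 9, of which 0 passed. Kcnf1 alone averaged above 16, at 24.5 ± 5.01 and 20.3 ± 7.53 in control and knockdown (SD, n = 3 each), with a difference of -0.18. Kcng4 was lower on each knockdown array, at means of 14.1 and 8.10, without passing (limma adjusted p = 0.369).

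The 12 tandem-pore leak channels, which set the resting voltage, had 0 up and 0 down, with 9 differences above 0 and 3 below. Kcnk2, a leak channel opened by stretch and lipids, read 77.6, 77.0 and 53.5 in the control and 50.6, 56.2 and 27.6 in the knockdown. The dimmest control lay among the knockdown arrays. The log2 difference was -0.57 (95% interval -1.03 to -0.11), the unadjusted limma p 0.0228 and the limma adjusted p 0.205. Over the 4 arrays of higher spike Kcnk2 differed by -0.43, and over the other 2 by -0.85.

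Kcnk16, a leak channel of the pancreas, was higher on each knockdown array at intensities under 5, with a difference of 0.15 that did not pass (limma adjusted p = 0.608). Kcnk7, a member of the family without a known current of its own, read 12.3, 5.73 and 7.75 against 19.3, 17.6 and 12.3 and did not pass (limma adjusted p = 0.215). Kcnk13, a leak channel of glia and microglia, read 56.6, 18.9 and 51.1 against 66.5, 69.2 and 49.8. The range within the control exceeded the difference of 0.42 between the groups (limma adjusted p = 0.668). The other Kcnk13 probe set was dimmer, at 8.74 to 19.1 on all arrays, and differed by -0.10. Kcnk15 differed by 0.00 with a 95% interval from -0.57 to 0.58. Kcnk5, an acid-sensitive leak channel, read 69.7 and 48.4 on array 3 of the control and the knockdown and 23.0 to 31.8 on the other 4 arrays. Its second probe set did not share that pattern, at 24.0 and 14.4 on array 3 and 21.1 to 41.2 on the others, and its groups lay apart with a difference of -0.42 that did not pass over all probe sets (limma adjusted p = 0.229). Kcna6 had the same pattern as the first, at 41.2 and 19.8 against 4.50 to 7.22. For 14 members, or 16.7%, both arrays numbered 3 lay outside the range of the other 4, against 15.9% of all genes.

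**Figure D3:**
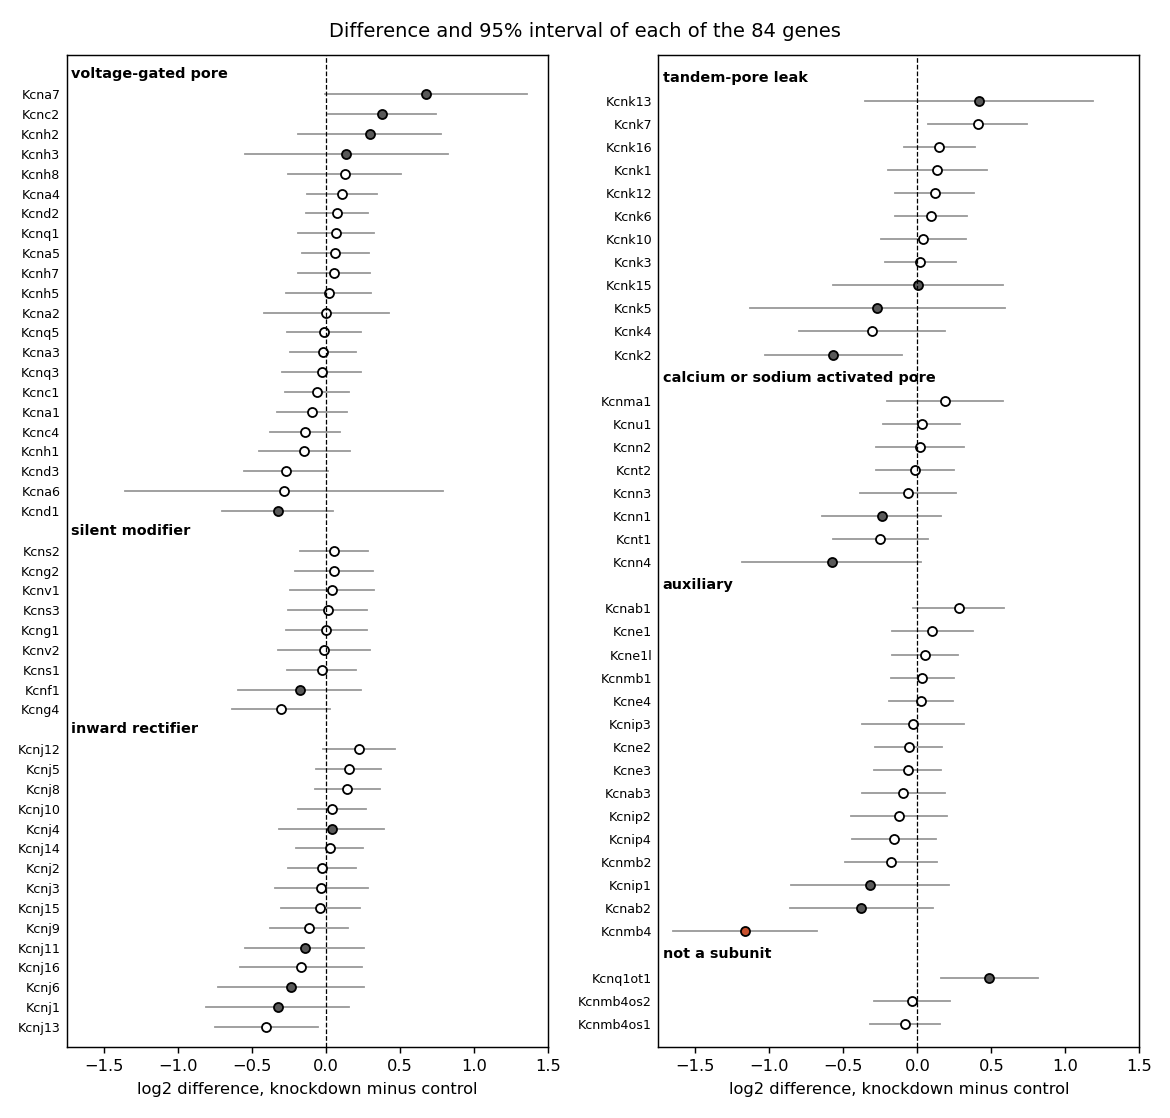
Log2 difference (x axis, knockdown minus control) with its 95% interval for the 84 genes, by class. Filled points have a mean intensity of at least 16, open points less, and the coloured point is Kcnmb4, the member that passed at -1.16. Every other difference lies between -0.58 and 0.68.

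Auxiliary subunits besides Kcnmb4 numbered 14, and none passed. Kcnip1, a calcium-binding partner of transient outward channels, read 99.9, 115 and 94.2 against 69.5, 128 and 67.4. Knockdown array 2 was the brightest of all 6, and the difference of -0.32 did not pass (limma adjusted p = 0.618). Kcnab2, a cytoplasmic beta subunit, averaged 28.5 ± 8.84 and 18.3 ± 4.71 (SD, n = 3 each), with a difference of -0.38 (limma adjusted p = 0.467). Its relative Kcnab1 was higher on each knockdown array at intensities of 5.86 to 11.4, against 1.47 to 5.55 in the control (limma adjusted p = 0.375). Kcne3, a single-span subunit of muscle channels, was at 2.16 to 4.71 on all arrays.

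Probe sets of a gene rarely gave a second clear reading. Of 46 members with at least 2 probe sets, 5 had 2 or more with a mean of at least 16: Kcnh3, Kcnj11, Kcnk5, Kcnn4 and Kcnq1ot1. All differences had 1 sign in 11 of the 46 and mixed signs in 35. Over the 167 probe sets, 0 rose and 1 fell by limma at an adjusted p under 0.05, which 2.43% of all probe sets passed. At an unadjusted p under 0.05, 5 were higher and 5 lower, against 11.7% of all probe sets.

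Kcnq1ot1, the imprinted noncoding RNA that runs antisense within Kcnq1 and silences neighbouring genes on 1 parental chromosome, was higher in the knockdown at several probe sets without passing. Its representing probe set, 1457781_at, read 18.9, 16.3 and 8.76 on the control arrays and 27.0, 27.5 and 24.2 on the knockdown arrays. The groups did not overlap. Kcnq1ot1 differed by 0.49 (SE 0.138, 95% interval 0.16 to 0.82, limma adjusted p = 0.125), by 0.39 over the 4 arrays of higher spike and 0.69 over the other 2.

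Another probe set, 1458161_at, read 6.03, 15.2 and 9.04 against 26.3, 17.3 and 22.4, also apart, with a difference of 0.57 and a limma adjusted p of 0.168 over all probe sets. With array weights in the fit it passed. The probe set 1442029_at differed by 0.50 with overlapping groups, and the remaining 3 stayed below 5 on all arrays. These probe sets read 1 transcript and are not independent of each other. Kcnq1, the channel gene it overlaps, was at 1.75 ± 1.03 and 2.68 ± 1.64 (SD, n = 3 each).

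**Figure D4:**
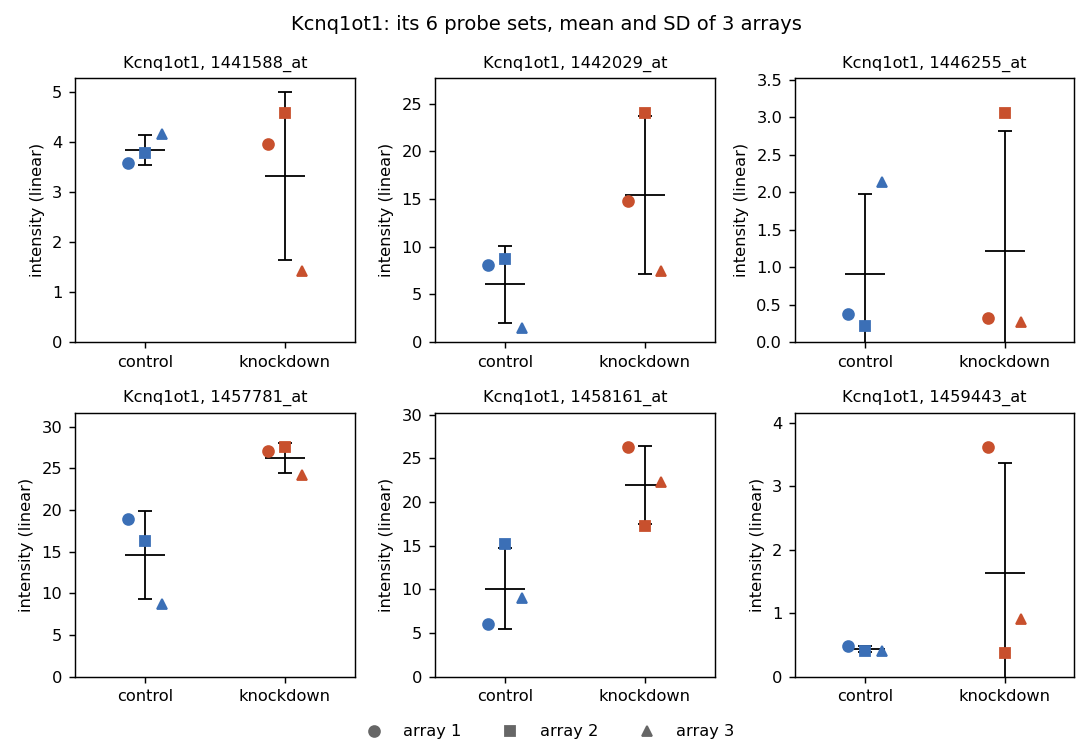
Intensity on each array (y axis, linear, from 0, scaled per panel) for the 6 probe sets of Kcnq1ot1, with the mean and SD of 3 arrays in black. In 2 panels, 1457781_at and 1458161_at, all knockdown arrays are above all control arrays, and 3 panels hold only intensities under 5.

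Genes that work beside potassium channels were read from 3 lists. Of 13 measured partners of the channels 1 rose, 0 fell and 12 did not pass, with a median log2 difference of -0.07. The gene that rose was Cav3, the muscle caveolin that scaffolds membrane proteins, from 1.70 ± 0.709 to 67.4 ± 8.69 (SD, n = 3 each; log2 difference 2.20, limma adjusted p = 0.000305). The sulfonylurea receptor genes Abcc8 and Abcc9, partners of Kcnj11 and Kcnj8, differed by -0.38 and 0.35 without passing (limma adjusted p = 0.474 and 0.133). Abcc9 read 0.540, 1.03 and 1.49 against 6.29, 7.19 and 3.66.

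Of 39 other channels, transporters and pumps of the muscle membrane 4 rose, 3 fell and 32 did not pass, with a median of 0.04. Cacna1s, the voltage sensor of skeletal muscle, rose by 1.65 and its gamma subunit Cacng1 by 1.18, and Slc12a2, a sodium, potassium and chloride cotransporter, rose by 1.62. Most markers of differentiated muscle, 5 of 6, rose on the same arrays, and their part in these rises was not tested. Atp1b1, a beta subunit of the sodium and potassium pump, fell by 1.84, from 613 ± 214 to 164 ± 33.1 (SD, n = 3 each). Slc8a1, a sodium and calcium exchanger, rose by 0.83, and Trpc1 and Ano1, a cation and a chloride channel, fell by 0.89 and 0.53. Those last 3 were named after their values were seen, and leaving out single arrays undid each call. The limma adjusted p reached 0.185 for Slc8a1 without knockdown array 1, 0.0941 for Trpc1 and 0.113 for Ano1 without knockdown array 3.

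Of 13 measured genes of calcineurin, NFAT and MEF2 with myogenin 2 rose, 1 fell and 10 did not pass, with a median of 0.06. Myog and Mef2c rose by 3.78 and 2.45. Rcan2, an inhibitor of calcineurin, fell by 1.94, from 263 ± 78.4 to 61.4 ± 23.5 (SD, n = 3 each), with a limma adjusted p of 0.0057. The calcineurin subunits Ppp3ca, Ppp3cb and Ppp3r1 differed by 0.61, 0.06 and 0.18, and 0 of the 3 passed. Without eBayes moderation of the variances, Rcan2, Myog, Atp1b1, Cacng1 and Slc12a2 each lost their call (highest adjusted p 0.0908), and Rcan2 also lost it in the 4 arrays of higher spike signal (limma adjusted p = 0.0683).

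**Figure D5:**
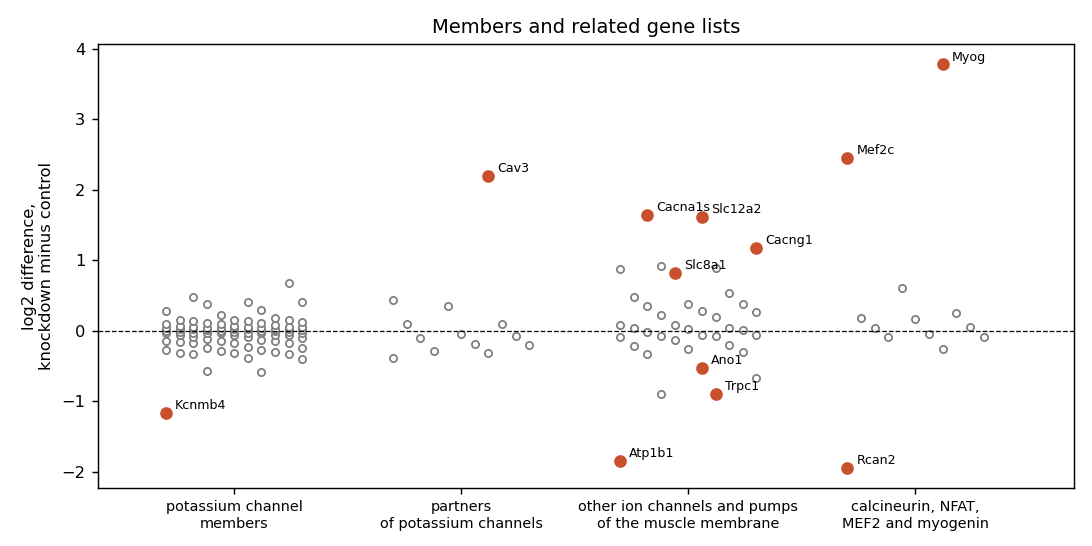
Log2 difference (y axis, knockdown minus control) of each gene in the potassium channel members and in 3 related lists, with passing genes coloured and named. The members lie between -1.16 and 0.68, while Myog reaches 3.78 and Atp1b1 and Rcan2 lie at -1.84 and -1.94.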

How the data were processed

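Affymetrix arrays were hybridized with biotin-labelled cRNA from 8 µg of total RNA extracted with Trizol, per the labels' protocols. The authors deposited an unlogged intensity for every probe set on every array. The submitters' processing notes name GCOS and PLIER, with background correction and scaling not given in the sources used here. Of 45101 deposited probe sets, 64 Affymetrix controls were left out. There were 0 columns of other samples.

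Intensities were converted to log2(intensity + 16) in R 4.3.3 with limma 3.58.1 and quantile normalized between arrays because their spread differed. Printed intensities are the deposited ones, so a difference need not equal their ratio. Gene symbols came from the platform annotation, which gave 1 symbol for 34945 probe sets and several for 932. All 84 members matched a RefSeq gene by Entrez identifier. Each gene was represented by its brightest probe set, by the mean across 6 arrays. Groups were compared with lmFit and eBayes, and p-values were adjusted by Benjamini-Hochberg over 18193 genes, or over 45037 probe sets, at an adjusted p under 0.05. The test was tried on simulated data drawn independently for each array, without spike or RNA quality differences. No result here rests on that trial. No depth applies to arrays, and their number limits the precision.

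The members and lists were chosen with earlier results of these data known. Genes are named if they passed, averaged at least 100, belonged to a muscle panel or were Kcnq1ot1. Other members, and list genes beyond the 4 largest passing changes, were named after their values were seen. Alternatives covered normalization, offset, a filter on low values, variance model and array weights. They also covered replicate number and spike signal level as blocks, probe set choice and left-out arrays.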

Additional observations from a re-analysis of the deposited data

How the results depend on the processing

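Counts of called members hung on Kcnmb4. The number of genes called lower was 1 with all arrays, and 0 with an offset of 64 (Kcnmb4 adjusted p = 0.0539), with ordinary statistics (Kcnmb4 adjusted p = 0.166) and in the 4 arrays of higher spike signal. It was 0 to 1 with single arrays left out. With the other alternatives it was 1, and the number of genes called higher was 0 in all 18. Kcnmb4 differed by -1.35 to -0.87 and passed in 11 of 18, with limma adjusted p values of 0.00747 to 0.197. At probe set level the number called lower was 0 without normalization, with median scaling, with offsets of 1 and 64, with ordinary statistics, with either block and in the 4 arrays of higher spike signal, and 0 to 1 with single arrays left out. The number called higher was 1 with array weights.

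Deviations of same-numbered arrays correlated at 0.342, 0.00746 and 0.116, and 2 of 3 correlated best with their own number. So few values cannot tell whether the replicate numbers pair the arrays. With the replicate number as a block 712 genes were called in place of 938, Kcnmb4 among them, and the number of probe sets called lower among the members was 0.

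Of 44 named members 28 kept their sign and side of the threshold throughout. Changes of sign were all among differences that did not pass, and their cause was not tested. With array weights Kcnc1, Kcnj2, Kcnmb4os2 and Kcnn3 were at 0.0018, 0.0098, 0.042 and 0.042. With the mean of a gene's probe sets Kcnf1, Kcnh3, Kcnmb1 and Kcnn1 were at 0.0022, -0.075, -0.078 and 0.042. In the 4 arrays of higher spike signal Kcnj2, Kcnj6, Kcnmb4os2 and Kcnn1 were at 0.036, 0.0049, 0.056 and 0.019, and Kcnq5 was at 0.0028 with median scaling. With single arrays left out, Kcna6 ranged from -0.58 to 0.24, Kcnh3 from -0.20 to 0.35, Kcnj11 from -0.25 to 0.0049, Kcnj2 from -0.076 to 0.0077, Kcnj4 from -0.10 to 0.14, Kcnj6 from -0.41 to 0.0051, Kcnk15 from -0.18 to 0.22, Kcnk5 from -0.55 to 0.12, Kcnmb4os2 from -0.098 to 0.026, Kcnn3 from -0.14 to 0.056 and Kcnq5 from -0.045 to 0.059.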
